A study of Mus musculus with 21 samples.

Results

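The genes described here are 10 mouse genes whose FPKM (fragments per kilobase of transcript, scaled to the mapped fragments of a library) was lower in embryonic stem cells (ESCs) at 60 and 80 mM sodium lactate than at 0 mM: Lgals3, Apoe, Enox1, Ephx2, Mymx, Pipox, Adam23, Gbx2, L1td1 and Lin28a. They were picked by name for that difference, out of 21161 gene names in both deposited tables, so their lactate values are given as a description and carry no test. In the lactate table, ESCs at 0, 60 and 80 mM sodium lactate have 3 libraries per dose. In the cell-state table, 3 libraries stand for each of 4 groups: 2-cell-like cells (2CLCs, which express transcripts of the 2-cell embryo), epiblast stem cells (EpiSCs, a primed pluripotent state), mouse embryonic fibroblasts (MEFs) and ESCs. The labels name the line OG2 for all 21 libraries and WT for every group without lactate. They give neither the time in lactate, nor a group with another sodium salt, nor whether the libraries of a group came from separate cultures, so p-values below measure the spread between these libraries only. The number of reads behind a value is unknown.

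The 10 genes belong to several pathways. Lin28a encodes an RNA-binding protein that blocks maturation of the let-7 microRNAs, and L1td1 an RNA-binding protein derived from a LINE-1 element that in human ESCs is found with LIN28. Gbx2 encodes a homeobox transcription factor that lies downstream of LIF and STAT3 in mouse ESCs, the signal that holds them in naive pluripotency. Apoe encodes apolipoprotein E, a lipid carrier bound by receptors of the LDL receptor family, and Lgals3 encodes galectin-3, a lectin that binds beta-galactosides. Ephx2 encodes soluble epoxide hydrolase, which turns fatty acid epoxides into diols, and Pipox a peroxisomal oxidase of sarcosine and pipecolic acid. Mymx encodes myomixer, a small membrane protein required for myoblast fusion, Adam23 a member of the ADAM family without protease activity that binds LGI1, and Enox1 an oxidase of the cell surface.

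All 10 are protein-coding genes, spread over 6 chromosomes in GENCODE M21 on GRCm38. Chromosome 14 holds 3 of them: Lgals3 (chr14:47367751-47386160, + strand), Ephx2 (chr14:66084374-66124500, - strand) and Enox1 (chr14:77156763-77721760, + strand). Adam23 (chr1:63445891-63596276, + strand) and Gbx2 (chr1:89927956-89931179, - strand) lie on chromosome 1. L1td1 (chr4:98726734-98738480, + strand) and Lin28a (chr4:134003330-134018841, - strand) lie on chromosome 4. Apoe is at chr7:19696109-19699188 (- strand), Pipox at chr11:77880615-77894096 (- strand) and Mymx at chr17:45600971-45602102 (- strand). No 2 of the genes are neighbours.

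Promoter sequence, the 250 bases before a RefSeq start on GRCm38.p6, was found for 8 of the 10 genes (10 starts, 3 of them of Apoe). Ephx2 and Mymx are named only. A few windows are printed 5′ to 3′ on the gene's strand, because they hold a motif searched for or, for Apoe, because it is the most abundant of the genes; capitals mark motif letters, which do not overlap. The RefSeq start of Lgals3 lies inside the GENCODE span given above.
Lgals3, chr14:47373610-47373859, + strand: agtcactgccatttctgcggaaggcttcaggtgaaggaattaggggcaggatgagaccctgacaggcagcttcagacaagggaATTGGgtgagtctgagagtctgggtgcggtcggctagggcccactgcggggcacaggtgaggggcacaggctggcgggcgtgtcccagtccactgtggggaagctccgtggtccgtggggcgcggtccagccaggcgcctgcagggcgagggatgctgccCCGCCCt
Apoe, chr7:19699189-19699438, - strand: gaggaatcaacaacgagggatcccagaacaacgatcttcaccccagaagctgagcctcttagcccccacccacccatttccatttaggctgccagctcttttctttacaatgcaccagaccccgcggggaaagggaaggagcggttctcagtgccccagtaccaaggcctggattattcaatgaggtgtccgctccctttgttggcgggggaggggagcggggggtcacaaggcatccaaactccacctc
Enox1, chr14:77156513-77156762, + strand: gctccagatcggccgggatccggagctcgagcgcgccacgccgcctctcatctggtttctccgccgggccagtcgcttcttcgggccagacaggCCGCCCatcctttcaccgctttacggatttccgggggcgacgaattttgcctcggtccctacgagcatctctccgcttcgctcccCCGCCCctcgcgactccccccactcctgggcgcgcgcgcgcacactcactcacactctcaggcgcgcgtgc
Pipox, chr11:77893873-77894122, - strand: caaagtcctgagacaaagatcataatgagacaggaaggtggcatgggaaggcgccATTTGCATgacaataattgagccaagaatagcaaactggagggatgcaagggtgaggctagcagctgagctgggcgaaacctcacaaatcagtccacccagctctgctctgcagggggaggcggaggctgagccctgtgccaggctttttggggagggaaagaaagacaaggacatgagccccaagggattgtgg
Gbx2, chr1:89931177-89931426, - strand: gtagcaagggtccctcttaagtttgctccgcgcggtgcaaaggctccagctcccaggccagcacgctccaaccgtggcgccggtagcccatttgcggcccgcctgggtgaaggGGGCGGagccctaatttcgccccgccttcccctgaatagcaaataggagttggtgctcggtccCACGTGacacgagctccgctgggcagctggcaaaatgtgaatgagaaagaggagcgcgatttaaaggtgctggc

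The motifs below were searched on both strands of these windows and of all 32851 promoters in the table. GGGCGG, the GC box bound by SP and KLF factors, stood in the windows of Enox1, Gbx2 and Lgals3, and in 32.7% of all promoters. The E-box CACGTG stood in Gbx2 (6.02% of all promoters), the octamer ATGCAAAT in Pipox (1.6%), CCAAT in Lgals3 (33.8%), and TATAAA in a downstream Apoe start that is not printed (12.4%). TCAAGGTCA, known from ESRRB, and TTCCNGGAA, known from STAT factors, stood in 0 of the 10 windows, and in 0.387% and 0.913% of all promoters. No motif was thus shared by most of the 10 windows. The windows held a median of 10.5 CG dinucleotides, against 6 in all promoters. Promoters of genes expressed in ESCs were not compared separately, so nothing is read from this difference.

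On the log2(FPKM + 1) scale, Enox1 had the lowest fold change at 80 mM of all 13271 genes tested in the lactate table (those that reached 1 FPKM in 3 or more libraries). That scale understates changes of low genes, and Apol6, a gene of lower level, kept a smaller share of its FPKM, at a mean of 0.0589 FPKM at 80 mM, against 4.14 at 0 mM. Enox1 stood at 17.7, 16.8 and 17.0 FPKM at 0 mM, 4.22, 3.26 and 3.66 at 60 mM and 1.77, 1.80 and 1.74 at 80 mM. Its 3 doses did not overlap, and its mean at 80 mM was 10.3% of that at 0 mM. The log2 fold change of Enox1 was -1.95 ± 0.08 (SE) at 60 mM and -2.71 ± 0.08 at 80 mM. In bulk RNA, fewer cells that express a gene and less RNA per cell cannot be told apart.

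**Figure D1:**
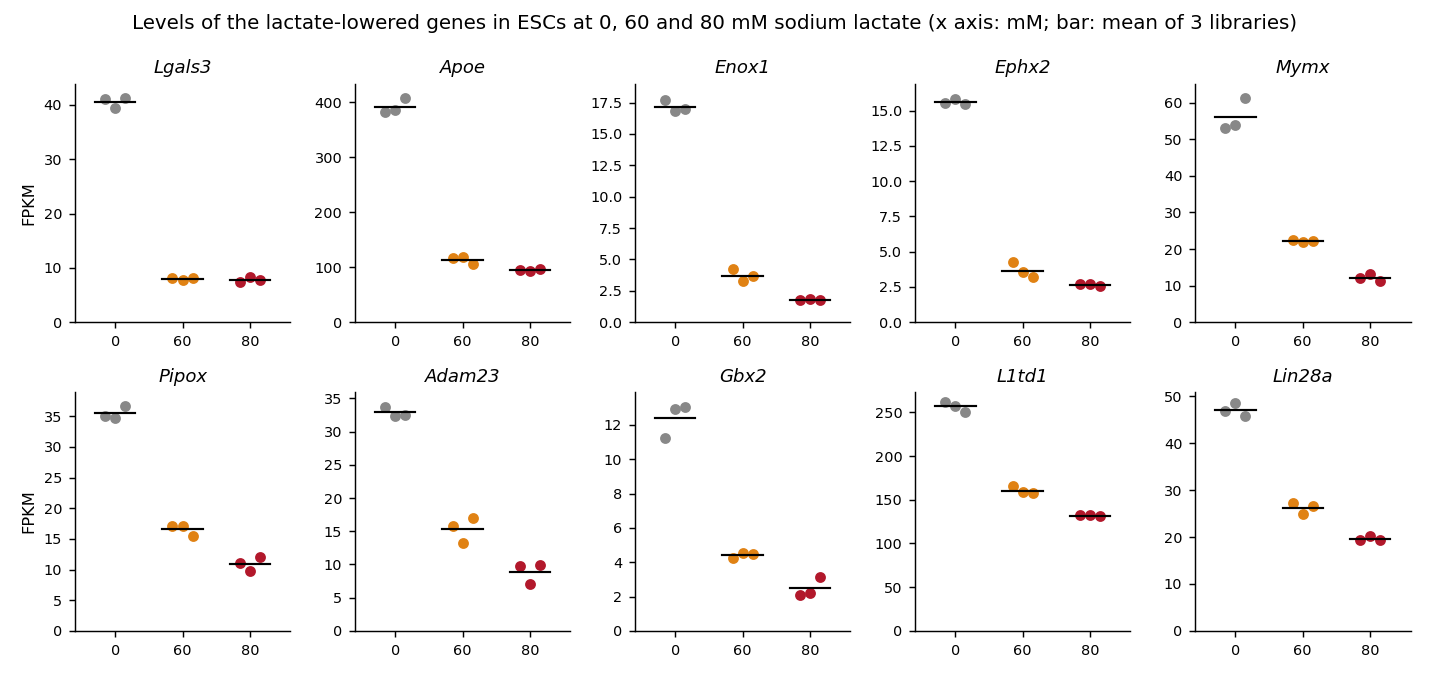
FPKM (y axis, starting at 0, own scale per gene) of the 10 genes in ESCs at 0, 60 and 80 mM sodium lactate (x axis). Points are the 3 libraries of a dose and bars their mean. Every library with lactate lies below every 0 mM library of the same gene, and Lgals3 is at about the same level at 60 and 80 mM.

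Lgals3, the galectin, stood at 41.1, 39.4 and 41.2 FPKM at 0 mM, 8.13, 7.70 and 8.15 at 60 mM and 7.30, 8.38 and 7.73 at 80 mM. Its levels at 60 and 80 mM overlapped, with 99.4% of the drop seen at 80 mM already present at 60 mM. Apoe, the lipid carrier and the most abundant of the 10, stood at 382, 386 and 409 FPKM at 0 mM, 116, 119 and 105 at 60 mM and 95.2, 92.9 and 96.1 at 80 mM. The log2 fold changes at 60 and 80 mM were -2.21 and -2.24 for Lgals3 and -1.78 and -2.04 for Apoe. For Apoe, 93.7% of the drop at 80 mM was present at 60 mM, and the doses did not overlap.

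The enzymes Ephx2 and Pipox were also lower. Ephx2, the soluble epoxide hydrolase, stood at 15.5, 15.9 and 15.5 FPKM at 0 mM, 4.25, 3.53 and 3.17 at 60 mM and 2.67, 2.73 and 2.58 at 80 mM. Its mean at 80 mM was 17.0% of the 0 mM mean, with log2 fold changes of -1.84 at 60 mM and -2.18 at 80 mM. Pipox, the peroxisomal oxidase, stood at 35.1, 34.8 and 36.7 FPKM at 0 mM, 17.2, 17.1 and 15.4 at 60 mM and 11.1, 9.69 and 12.1 at 80 mM. Its step between 60 and 80 mM was larger than that of Ephx2 on the log2 scale, at -0.56 for Pipox and -0.34 for Ephx2; this difference was not tested.

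Mymx and Adam23 encode proteins of the cell membrane. Mymx, the myoblast fusion protein, stood at 53.1, 53.9 and 61.3 FPKM at 0 mM, 22.5, 21.8 and 22.3 at 60 mM and 12.1, 13.1 and 11.4 at 80 mM. Adam23, the LGI1 receptor, stood at 33.8, 32.4 and 32.5 FPKM at 0 mM, 15.8, 13.3 and 16.9 at 60 mM and 9.79, 7.06 and 9.92 at 80 mM. In both genes the 3 doses were separate, and 77.1% (Mymx) and 73.2% (Adam23) of the drop at 80 mM was present at 60 mM. Their log2 fold changes were -1.29 and -2.11 for Mymx and -1.06 and -1.79 for Adam23 at 60 and 80 mM.

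The transcription factor and the RNA-binding proteins complete the group. Gbx2, the homeobox factor, stood at 11.3, 12.9 and 13 FPKM at 0 mM, 4.25, 4.51 and 4.47 at 60 mM and 2.08, 2.21 and 3.15 at 80 mM, with log2 fold changes of -1.31 and -1.96. Lin28a stood at 46.8, 48.5 and 45.9 FPKM at 0 mM, 27.2, 25 and 26.7 at 60 mM and 19.4, 20.2 and 19.4 at 80 mM, with log2 fold changes of -0.82 and -1.22. L1td1 stood at 262, 257 and 251 FPKM at 0 mM, 166, 158 and 158 at 60 mM and 132, 132 and 131 at 80 mM, with log2 fold changes of -0.67 and -0.95. Lin28a and L1td1 thus kept 41.8% and 51.4% of their 0 mM mean at 80 mM, while Gbx2 kept 20%.

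Whether the 10 are the most strongly lowered genes depends on the measure. Ranked by log2 fold change among the 13271 tested genes at 80 mM, Enox1 was 1, Lgals3 3, Ephx2 5, Mymx 6, Apoe 11, Gbx2 14, Adam23 17 and Pipox 24, with Lin28a at 76 and L1td1 at 170. Ranked by the drop in FPKM, Apoe was 5, L1td1 14, Mymx 92, Lgals3 155, Lin28a 195, Pipox 231, Adam23 241, Enox1 438, Ephx2 553 and Gbx2 757. The other genes among the 10 lowest by log2 fold change at 80 mM were Apol6, 1700097N02Rik, Ywhaq-ps3, Ddx58, Etv4 and Ntn1, of which Ywhaq-ps3 is a pseudogene that can share reads with its parent gene. The median log2 fold change of the 10 genes was -1.30 at 60 mM and -2.0 at 80 mM, against 0.03 at each dose over all tested genes. Since the genes were chosen on this difference, nothing is read from these medians, nor from the count of 10 of 10 genes whose lactate libraries all lay below the 0 mM libraries, which held for 23.9% of all tested genes at 60 mM and 26.4% at 80 mM.

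Between 80 and 60 mM, 9 of the 10 genes had all 80 mM libraries below all 60 mM libraries, with Lgals3 the exception, and this held for 11.6% of all tested genes. The choice of genes also used these values. The differences ranged from -0.82 for Mymx to -0.03 for Lgals3 on the log2 scale.

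The same genes were then followed in 2CLCs, EpiSCs and MEFs, each compared with the ESCs of the cell-state table, with limma on log2(FPKM + 1) and Benjamini-Hochberg adjustment over all 16358 tested genes at a threshold of 0.05. The selection did not use these values, but it favoured genes expressed in ESCs. The ESC libraries are shared by the 3 comparisons. Where a group lies near 0, the size of a log2 fold change depends on the pseudocount added to FPKM. Over the alternative runs, Ephx2 in EpiSCs ranged from -3.66 to -0.62 and Mymx in EpiSCs from -8.00 to -4.14. Gbx2 in MEFs ranged from -7.49 to -2.34. Each of these kept its call in every run.

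In 2CLCs, 7 of the 10 genes were lower than in ESCs and 1 was higher, while 56.4% of all tested genes were called lower and 20.1% higher, and 76.2% of genes with at least 10 FPKM in ESCs were called lower. The count of lower genes was thus near this background. Lin28a had the lowest value relative to ESCs, with 6.80, 6.01 and 8.04 FPKM in 2CLCs against 121, 115 and 117 in ESCs (log2 fold change -3.90 ± 0.13 SE, adjusted p = 2.94e-10 by limma), and ranked 11 among 16358 genes. Gbx2 fell to 1.42, 2.11 and 2.91 FPKM in 2CLCs, against 20.1, 20.1 and 20.7 in ESCs (-2.79, adjusted p = 4.06e-08). The log2 fold changes were -2.52 for Adam23 (adjusted p = 2.01e-10), -2.47 for Mymx (9.65e-08) and -2.39 for Enox1 (1.60e-08).

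L1td1 and Pipox fell less in 2CLCs. L1td1 stood at 87.1, 88.6 and 96.5 FPKM in 2CLCs, against 246, 249.7 and 256 in ESCs (-1.46, adjusted p = 2.61e-05 by limma). Pipox stood at 12.8, 11.9 and 16.6 FPKM in 2CLCs, against 29.2, 30.9 and 26.6 in ESCs (-1.03, adjusted p = 4.95e-05). The groups did not overlap for either gene.

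Ephx2 went the other way, with 7.95, 7.07 and 7.42 FPKM in 2CLCs against 2.59, 3.36 and 2.74 in ESCs (1.13, adjusted p = 4.45e-07 by limma). Lgals3 was not called, at 14.3, 12.7 and 19.6 FPKM in 2CLCs against 19.9, 17.9 and 17.5 in ESCs (-0.25, adjusted p = 0.106). Apoe was not called either, at 114, 117 and 139.8 FPKM in 2CLCs against 101, 105 and 109 in ESCs (0.23, adjusted p = 0.184), although its groups did not overlap. The median of all tested genes in this comparison was -0.46, and median-of-ratios scaling moved it by 0.50. With that scaling 31.7% of tested genes were lower and 38.4% higher, Lgals3 and Apoe were called higher at 0.48 (adjusted p = 0.00792) and 0.99 (adjusted p = 0.000116), and Pipox lost its call at -0.30 (adjusted p = 0.0957). Lgals3 was called lower without 2CLC replicate 3 (-0.42, adjusted p = 0.00285), and Apoe higher without EpiSC replicate 1 in the shared fit (0.23, adjusted p = 0.00926) and when only 2CLCs and ESCs were fitted (0.23, adjusted p = 0.0295).

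In EpiSCs, 6 of the 10 genes were lower and 1 was higher than in ESCs, against 26.5% and 33.2% of all tested genes, and 40.4% lower among genes with at least 10 FPKM in ESCs. EpiSC replicate 1 stood apart, with a Pearson correlation across genes of 0.977 with each of the other EpiSC libraries, against 0.995 between those. Mymx was nearly absent, at 0.0816, 0.149 and 0.853 FPKM in EpiSCs against 90.4, 91.0 and 86.7 in ESCs (-6.10, adjusted p = 1.92e-10 by limma). Lgals3 was listed at 0, 0.199 and 0.201 FPKM in EpiSCs, against 19.9, 17.9 and 17.5 in ESCs (-4.10, adjusted p = 6.21e-10). Enox1 stood at 0.424, 0.416 and 0.402 FPKM in EpiSCs, against 28.8, 26.8 and 27.2 in ESCs (-4.34, adjusted p = 3.91e-10).

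Gbx2 was lower in EpiSCs by -3.16 (adjusted p = 3.52e-08 by limma), with 1.71, 1.61 and 0.894 FPKM in EpiSCs, a range that overlapped that of 2CLCs. Ephx2 stood at 0.0904, 0.154 and 0.170 FPKM in EpiSCs, against 2.59, 3.36 and 2.74 in ESCs (-1.77, adjusted p = 2.48e-08). Adam23 kept more of its level, with 23.4, 22.8 and 22.8 FPKM in EpiSCs against 49.6, 48.4 and 51.0 in ESCs (-1.08, adjusted p = 6.69e-07). These 6 genes kept their calls without EpiSC replicate 1.

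The RNA-binding proteins and Pipox stayed abundant in EpiSCs. Lin28a stood at 162, 111 and 114 FPKM in EpiSCs, against 121, 115 and 117 in ESCs (0.12, adjusted p = 0.501 by limma), and without EpiSC replicate 1 at -0.06 (adjusted p = 0.584). L1td1 stood at 276, 154 and 142 FPKM in EpiSCs, against 246, 249.7 and 256 in ESCs, and was not called (-0.46, adjusted p = 0.0588). Without EpiSC replicate 1 it was called lower (-0.75, adjusted p = 3.10e-07), and median-of-ratios scaling also gave that call (-0.56, adjusted p = 0.0251).

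Pipox stood at 27.6, 38.7 and 39.0 FPKM in EpiSCs, against 29.2, 30.9 and 26.6 in ESCs (0.26, adjusted p = 0.153 by limma), and was called higher without EpiSC replicate 1 (0.42, adjusted p = 0.00921). Apoe was the only gene of the 10 called higher in EpiSCs with all libraries, at 107, 168 and 167 FPKM against 101, 105 and 109 in ESCs (0.46, adjusted p = 0.0194). Its call was lost without EpiSC replicate 2 (adjusted p = 0.0809), EpiSC replicate 3 (0.0804) or ESC replicate 1 (0.0596), with median-of-ratios scaling (0.0672) and when only EpiSCs and ESCs were fitted (0.0620).

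**Figure D2:**
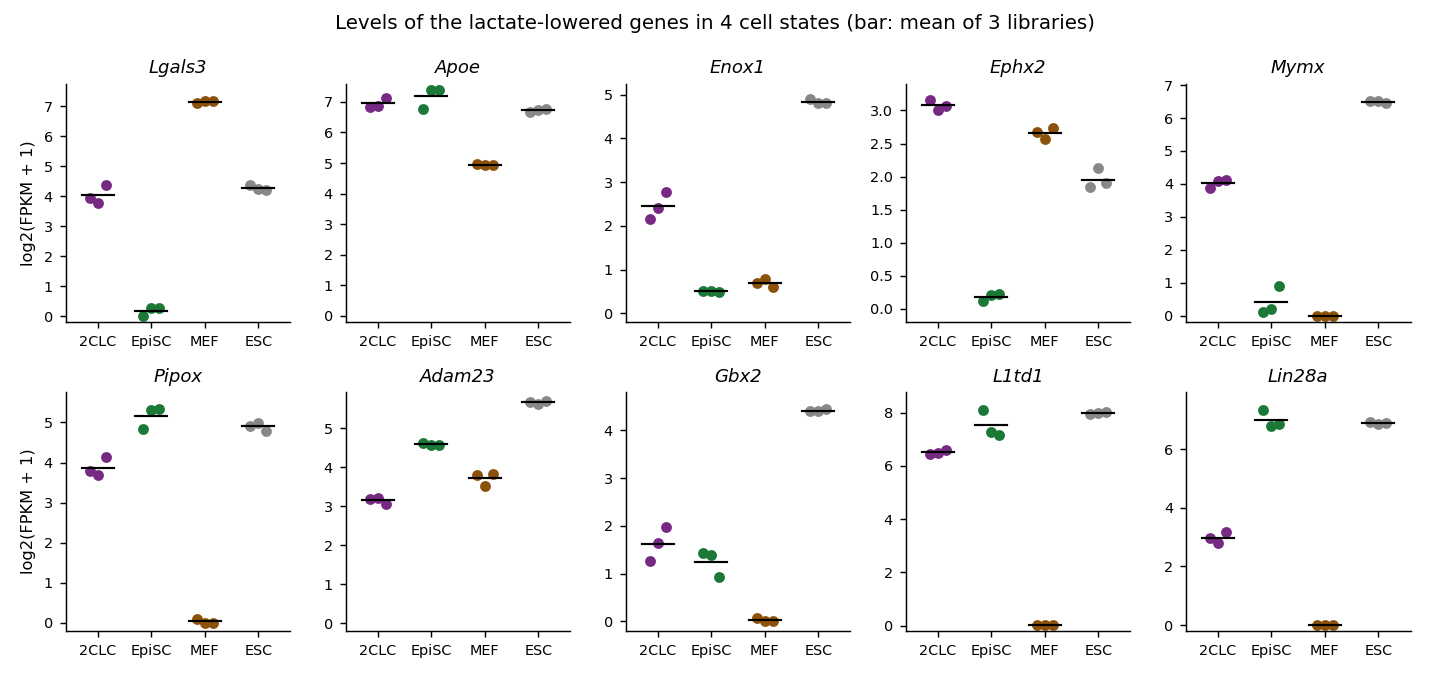
Levels of the 10 genes as log2(FPKM + 1) (y axis, own scale per gene) in 2CLCs, EpiSCs, MEFs and ESCs (x axis). Points are the 3 libraries of a group and bars their mean. Mymx and Lin28a are listed at 0 in every MEF library, Lgals3 is highest in MEFs, and EpiSC replicate 1 (first green point) lies apart from the other EpiSC libraries for Apoe, L1td1 and Lin28a.

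In MEFs, which lack the pluripotent state, all 10 genes were called, as were 75.3% of all tested genes: 8 were lower and 2 higher than in ESCs, against 40.9% and 34.4% of all tested genes, and 63.5% lower among genes with at least 10 FPKM in ESCs. Lin28a and Mymx were listed at 0 in each MEF library, against 115 to 121 and 86.7 to 91.0 FPKM in ESCs. L1td1 stood at 0.0237, 0.0236 and 0.0159 FPKM in MEFs, against 246, 249.7 and 256 in ESCs (-7.94, adjusted p = 1.15e-11 by limma). Pipox reached at most 0.0766 FPKM in MEFs (-4.86, adjusted p = 6.76e-11) and Gbx2 at most 0.0452 FPKM (-4.39, adjusted p = 6.13e-10).

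Enox1, Adam23 and Apoe were also lower in MEFs. Enox1 stood at 0.619, 0.720 and 0.524 FPKM in MEFs (-4.14, adjusted p = 1.11e-10 by limma), below 1 FPKM as in the EpiSC libraries. Adam23 stood at 12.9, 10.4 and 13.2 FPKM in MEFs (-1.95, adjusted p = 1.29e-09), between EpiSCs and 2CLCs. Apoe stood at 30.2, 29.5 and 29.6 FPKM in MEFs (-1.78, adjusted p = 4.92e-07), its lowest level in the table.

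Lgals3 and Ephx2 were higher in MEFs than in ESCs. Lgals3 stood at 138, 142 and 144 FPKM in MEFs, against 19.9, 17.9 and 17.5 in ESCs (2.87 ± 0.13 SE, adjusted p = 2.72e-09 by limma). Macrophage markers, given below, were also found in the MEF libraries. Ephx2 stood at 5.35, 4.90 and 5.66 FPKM in MEFs, against 2.59, 3.36 and 2.74 in ESCs (0.70, adjusted p = 2.61e-05). In order of level, Ephx2 ran from 2CLCs over MEFs and ESCs to EpiSCs, with no overlap between neighbours. Enox1, Mymx, Adam23 and Gbx2 were highest in ESCs without overlap, while L1td1 in ESCs and EpiSCs, Lin28a and Pipox in EpiSCs and ESCs, and Apoe in EpiSCs and 2CLCs overlapped at the top.

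The ESCs of the cell-state table and the ESCs at 0 mM carry the same labels apart from the table, and some of the 10 genes differed between them. Apoe averaged 105 FPKM in the cell-state ESCs and 392 at 0 mM, so that the cell-state level was near the 94.7 FPKM seen at 80 mM. Ephx2 averaged 2.89 FPKM in the cell-state ESCs and 15.6 at 0 mM, again near its 80 mM level of 2.66. Lgals3 averaged 18.4 FPKM in the cell-state ESCs and 40.6 at 0 mM.

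These gaps are large beside those of other genes. Of 12614 genes compared, 1.28% had a lower log2 difference than Apoe (-1.89), 0.967% than Ephx2 (-2.10) and 4.61% than Lgals3 (-1.10), with a median of 0.04. Lin28a lay at the other end, with 117 FPKM in the cell-state ESCs and 47.1 at 0 mM (1.30), and 97.6% of genes below it. Enox1 (0.65), Mymx (0.66), Adam23 (0.58) and Gbx2 (0.67) were also higher in the cell-state ESCs, with 89.4% to 91.7% of genes below them. Pipox was lower there (-0.29), with 24.7% of genes below it. Of the genes described here, 5 were thus lower and 5 higher in the cell-state ESCs than at 0 mM. The difference for L1td1 was -0.04. The tables were normalized separately, so no test was made between them, and culture, library and table cannot be told apart.

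The pathways of the 10 genes were described by 8 lists of other genes, written with earlier results of these data known. Of 115 tested list genes, 34 were lower and 34 higher at 60 mM, and 39 were lower and 41 higher at 80 mM (limma, adjusted over all genes). Among all tested genes 18.6% were lower and 23.5% higher at 60 mM, and 23.1% lower and 30.0% higher at 80 mM. With median-of-ratios scaling these shares became 22.9% and 19.3% at 60 mM and 29.6% and 24.6% at 80 mM, and the list genes were 41 lower and 25 higher at 60 mM and 46 lower and 34 higher at 80 mM. Quantile normalization gave 42 lower and 35 higher list genes at 80 mM. Both doses share the 0 mM libraries.

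The other genes of the LIN28 and let-7 axis, to which Lin28a and L1td1 belong, moved mostly downward where they were called: 10 of 17 were lower and 4 higher at 60 mM (12 and 2 with median-of-ratios scaling), and 12 were lower and 4 higher at 80 mM. Their median at 80 mM was -0.21, against 0.03 over all tested genes. Igf2bp3, an RNA-binding protein of the oncofetal IMP family, stood at 14.9, 14.7 and 15.9 FPKM at 80 mM, against 23.9, 25.9 and 23.9 at 0 mM (-0.66, adjusted p = 4.28e-06). Hmga1, an architectural chromatin protein with closely similar gene copies that can share its reads, fell by 0.62 (adjusted p = 5.55e-07), and Dis3l2, the nuclease of uridylated let-7 precursors, by 0.47 (adjusted p = 0.000322).

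Around Gbx2, the LIF and STAT3 list had 8 of 18 genes lower and 6 higher at 60 mM (8 and 3 with median-of-ratios scaling), and 7 lower and 6 higher at 80 mM (10 and 5 with median-of-ratios scaling, 9 and 4 with quantile normalization). Myc, a transcription factor of cell growth, stood at 15.3, 14.0 and 14.3 FPKM at 80 mM, against 30.9, 31.1 and 27.7 at 0 mM (-0.99, adjusted p = 1.80e-06 by limma). Junb, a factor of the AP-1 family, and Bcl3, an atypical inhibitor of NF-kappaB, fell by 0.62 (adjusted p = 3.42e-05) and 0.61 (adjusted p = 6.79e-06). Gbx2 itself was at -1.96.

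**Figure D3:**
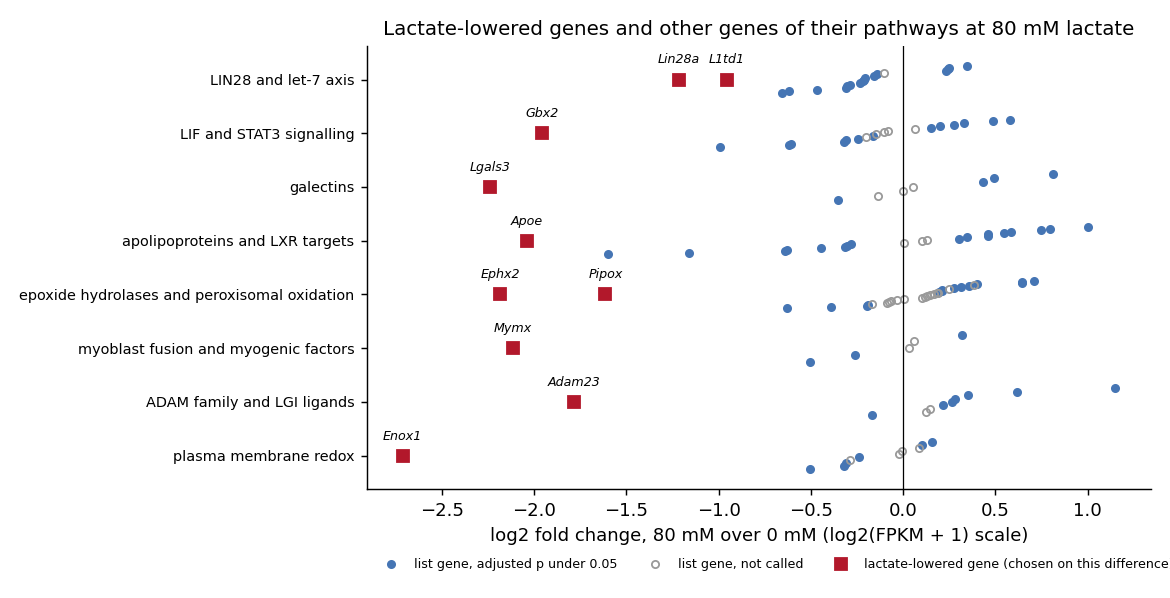
Log2 fold change at 80 over 0 mM lactate (x axis, log2(FPKM + 1) scale) of the 10 genes (red squares, chosen on this difference) and of the other genes of 8 pathway lists (rows). Filled blue points have an adjusted p under 0.05 and open grey points do not; 39 list genes lie below 0 and 41 above 0 among the filled points.

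The lipid genes beside Apoe moved in both directions, with 8 of 20 lower and 9 higher at 80 mM, and 7 lower and 8 higher at 60 mM (8 and 6 with quantile normalization). Apom, the apolipoprotein that carries sphingosine-1-phosphate, stood at 2.50, 2.73 and 2.18 FPKM at 80 mM, against 9.59, 10.3 and 8.67 at 0 mM (-1.60, adjusted p = 7.24e-07 by limma). Apoc2, the cofactor of lipoprotein lipase, fell by 1.16 (adjusted p = 0.00112). Lpcat3, a phospholipid acyltransferase and LXR target, rose to 40.6, 43.5 and 38.8 FPKM at 80 mM, against 21.0, 19.8 and 18.9 at 0 mM (1.0, adjusted p = 4.52e-07).

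In the list of epoxide hydrolases and peroxisomal oxidation, to which Ephx2 and Pipox are tied, 4 of 29 genes were lower and 10 higher at 80 mM (6 and 7 with median-of-ratios scaling), and 3 lower and 7 higher at 60 mM (5 and 4 with that scaling). Ephx1, the microsomal epoxide hydrolase, stood at 9.43, 10.1 and 8.84 FPKM at 80 mM, against 5.97, 4.71 and 6.50 at 0 mM (0.64, adjusted p = 0.000295 by limma), opposite to Ephx2. Pex19, an import factor for peroxisomal membrane proteins, rose by 0.71 (adjusted p = 4.43e-06) and Acaa1b, a peroxisomal thiolase, by 0.65 (adjusted p = 0.000691).

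Relatives of Lgals3 were measured next. Among 7 galectin and glycan genes 1 was lower and 3 higher at 80 mM (2 and 3 with median-of-ratios scaling, and likewise with quantile normalization, under which the median of 0.06 became -0.07), and 1 lower and 2 higher at 60 mM (1 and 1 with quantile normalization). Lgals8, another galectin, rose by 0.49 (adjusted p = 0.000559 by limma) and Mgat5, an enzyme of N-glycan branching, by 0.43 (adjusted p = 0.00542). Lgals7 stood at 3.21, 2.80 and 3.01 FPKM at 80 mM, against 0.883, 0.749 and 2.59 at 0 mM (0.81, adjusted p = 0.0130), a call lost without 0 mM replicate 1 (adjusted p = 0.0504).

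Of the 9 genes of the ADAM family and LGI ligands, 1 was lower and 6 higher at 80 mM, and 1 lower and 5 higher at 60 mM. Adam15 stood at 23.8, 21.2 and 21.8 FPKM at 80 mM, against 9.35, 9.1 and 10.005 at 0 mM (1.15, adjusted p = 3.75e-07 by limma). Adam19 rose by 0.62 (adjusted p = 1.08e-06) and Adam17, the sheddase of TNF, by 0.35 (adjusted p = 0.00048). These ADAMs are active proteases, unlike Adam23, which was at -1.79.

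Around Mymx, 2 of 5 tested genes of myoblast fusion and myogenic factors were lower and 1 higher at 80 mM, and 0 lower and 1 higher at 60 mM (2 and 1 with median-of-ratios scaling, 3 and 1 with quantile normalization). Of the 17 genes listed, 12 did not reach the filter. Des, the muscle intermediate filament gene, stood at 0.655, 0.859 and 0.948 FPKM at 80 mM, against 1.56, 1.63 and 1.54 at 0 mM (-0.50, adjusted p = 0.00312 by limma). Dock1, a Rac exchange factor, fell by 0.26 (adjusted p = 0.00428), and Kirrel, an adhesion protein, rose by 0.32 (adjusted p = 0.000839).

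Among 10 plasma membrane redox genes, 4 were lower and 2 higher at 80 mM (4 and 0 with median-of-ratios scaling, 4 and 1 with quantile normalization), and 4 lower and 1 higher at 60 mM (4 and 2 with quantile normalization). Enox2, the relative of Enox1, stood at 2.06, 2.1 and 2.06 FPKM at 80 mM, against 2.68, 2.97 and 2.78 at 0 mM (-0.31, adjusted p = 0.00679 by limma). Nqo1, a quinone reductase, fell by 0.50 (adjusted p = 3.53e-05) and Txnrd1, a thioredoxin reductase, by 0.32 (adjusted p = 1.12e-05). Enox1 itself was at -2.71.

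The genes next to the 10 were examined to see whether the lower levels extended to their surroundings. The tested genes whose lower coordinate came next before and next after that of each were taken, 20 in all, of which 3 overlap the lowered gene: Gm10132 lies inside Enox1, Gm22281 inside Adam23, and D130058E05Rik overlaps Gbx2 in part. Of the 20, 4 were lower and 8 higher at 60 mM, against 18.6% lower and 23.5% higher of all tested genes. At 80 mM 8 were lower and 10 higher, against 23.1% lower and 30.0% higher of all tested genes. The log2 fold changes of the 20 at 80 mM lay between -0.83 and 1.05, with a median of 0.13. Beside L1td1, Patj stood at 3.52, 3.27 and 5.87 FPKM at 80 mM, against 1.53, 1.39 and 1.46 at 0 mM (1.05, adjusted p = 0.000292 by limma). Beside Enox1, Ccdc122 was higher by 0.87 (adjusted p = 0.00236). The calls of 9 of the 18 called neighbours held under every alternative run, 3 of them lower (Mapk1ip1l beside Lgals3, Tomm40 and D130058E05Rik) and 6 higher (among them both neighbours of L1td1).

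**Figure D4:**
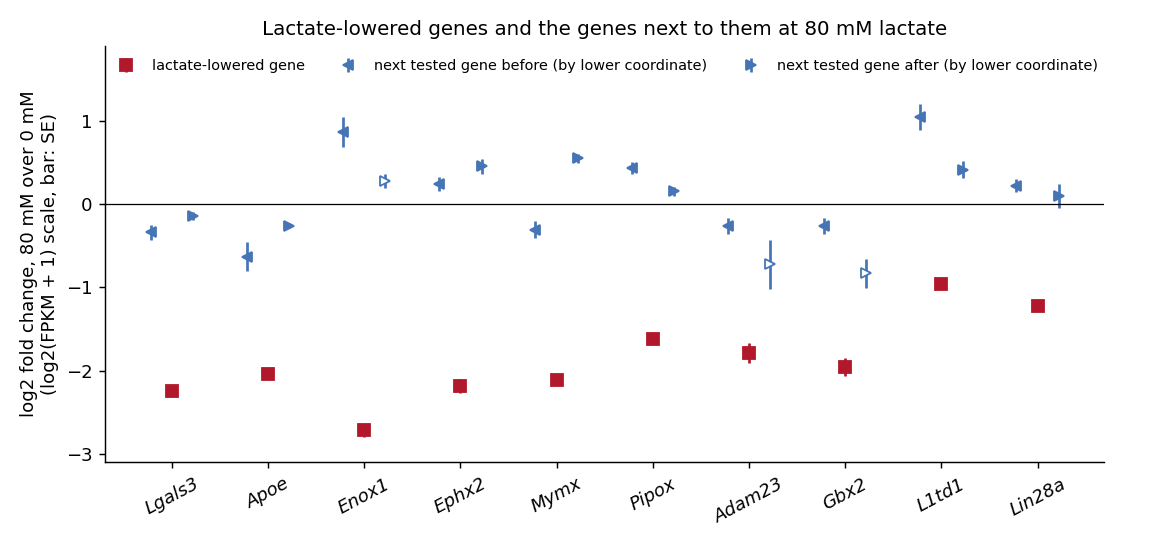
Log2 fold change at 80 over 0 mM lactate (y axis, log2(FPKM + 1) scale, bars: SE of the fit) of the 10 genes (red squares) and of the tested genes whose lower coordinate came next before (left-pointing) and next after (right-pointing) that of each. Open symbols mark the 3 that overlap the lowered gene. The 20 neighbours lie between -0.83 and 1.05. The 10 genes were chosen on this difference, so nothing is read from their place below both of their neighbours.

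Apoe, Lgals3 and Gbx2 each lay beside a lower gene whose call held. Apoc1, the apolipoprotein gene beside Apoe, stood at 9.38, 8.50 and 13.8 FPKM at 80 mM, against 15.5, 17.7 and 16.5 at 0 mM (-0.63, adjusted p = 0.0114 by limma), a call lost with no filter on low genes (adjusted p = 0.0523). Tomm40, a mitochondrial import gene on the other side of Apoe, fell by 0.26 (adjusted p = 0.000123). Gbx2 overlaps D130058E05Rik on the opposite strand, which stood at 1.54, 1.44 and 1.40 FPKM at 80 mM, against 3.02, 2.45 and 5.04 at 0 mM (-0.83, adjusted p = 0.00234). Whether counting used the strand is not given, so reads of Gbx2 and of this transcript cannot be told apart. The same limit may hold for Enox1 and Adam23, which each hold a tested gene on the opposite strand. Overlap was taken from whole gene spans, and whether exons are shared was not checked. Gm10132, a processed pseudogene inside Enox1, reached 56.4 FPKM at 80 mM, against 44.6 at 0 mM, and was called higher (0.28, adjusted p = 0.0161 by limma). Gm22281, a small nuclear RNA gene inside Adam23, reached 2.16 FPKM at 80 mM, against 4.32 at 0 mM, and was not called (-0.72, adjusted p = 0.0628). It was called lower under 4 of 16 alternatives: quantile normalization, a replicate block, and without 0 mM replicate 2 or 80 mM replicate 3.

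Genes whose pattern over the 5 fold changes was most like that of each of the 10 were found among 7976 genes tested in both tables, by the root-mean-square difference of the log2 fold changes. The 5 fold changes were those of 2CLCs, EpiSCs and MEFs against ESCs, and of 60 and 80 mM lactate against 0 mM. The lactate values also served to choose the 10 genes, so nothing is read from a match within the 10. Enox1 was closest to Gbx2, itself among the 10, with a difference of 0.72. L1td1 was closest to Tdgf1, a co-receptor of Nodal, with the smallest difference of all (0.44), but Tdgf1 differed in lactate, at -0.17 at 80 mM against -0.95 for L1td1. Lin28a was closest to Utf1, a chromatin factor of pluripotent cells, which stood at 105, 94.4 and 108 FPKM at 80 mM, against 167, 169.6 and 171 at 0 mM (-0.72).

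Mymx was closest to Nr0b1, a nuclear receptor gene of naive ESCs, which was listed at 0 in all EpiSC and MEF libraries and stood at 19.5, 19.9 and 17.7 FPKM at 80 mM, against 53.7, 54.0 and 53.7 at 0 mM. Ephx2 was closest to Il34, a cytokine ligand of CSF1R, which was also higher in 2CLCs (1.56) and lower in EpiSCs (-1.16) than in ESCs. Adam23 was closest to Ltbp4, a matrix protein that binds latent TGF-beta, with a difference of 0.47. Lgals3 had no close match: Hebp1, its nearest gene, was at a difference of 1.18, with 30.0, 34.1 and 30.4 FPKM in MEFs against 8.68, 8.01 and 7.16 in ESCs. The nearest genes of the others were Ppp1r1a for Apoe (0.75), B3gnt7 for Pipox (0.61) and Tgm1 for Gbx2 (0.58).

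Markers of the labelled cells and of other cells were read beside the lactate values. All 10 pluripotency markers were at 1 FPKM or more in every lactate library, with summed levels of 2930 to 3003 FPKM at 0 mM, 3129 to 3193 at 60 mM and 3209 to 3293 at 80 mM. At each dose 4 of them were called lower and 6 higher. Among the lower ones, Esrrb, a nuclear receptor of naive pluripotency, stood at 185, 169.6 and 185 FPKM at 80 mM, against 205, 246 and 252 at 0 mM, and Tfcp2l1, a transcription factor of the same state, at 70.4, 70.7 and 69.3 against 87.4, 87.7 and 86.3. Among the higher ones, Klf4 stood at 94.9, 93.0 and 97.0 FPKM at 80 mM, against 62.6, 62.0 and 65.1 at 0 mM. Nanog stood at 285, 294 and 299 FPKM against 238, 245 and 227. The 2-cell markers summed to 49.2 to 54.2 FPKM at 0 mM, 108 to 121 at 60 mM and 173 to 183 at 80 mM, and 8 of 8 tested ones were called higher at each dose, moving opposite to the 10 genes; their part in the result was not tested. Primed epiblast markers summed to 62.0 to 66.6 FPKM at 0 mM, 87.3 to 95.4 at 60 mM and 95.5 to 102 at 80 mM, and of 5 tested ones 1 was called lower and 3 higher at each dose. Among them Otx2 stood at 14.3, 12.8 and 12.1 FPKM at 80 mM, against 4.15, 3.69 and 3.65 at 0 mM. Cdh2 went the other way, at 1.97, 1.78 and 1.68 FPKM against 3.87, 3.25 and 4.01. Trophectoderm markers summed to 26.1 to 26.2 FPKM at 0 mM, 30.2 to 31.0 at 60 mM and 34.2 to 37.2 at 80 mM, with 1 of 6 tested ones called lower and 2 higher at each dose. Cdx2 stood at 5.18, 4.96 and 5.01 FPKM at 80 mM, against 1.76, 1.67 and 1.57 at 0 mM, and Gata3 at 8.38, 6.87 and 7.43 against 2.31, 3.02 and 2.50. Eomes went the other way, at 5.19, 5.08 and 5.85 FPKM against 7.71, 6.85 and 7.14. Primitive endoderm markers summed to 29.5 to 29.9 FPKM at 0 mM, 28.2 to 29.0 at 60 mM and 30.9 to 34.2 at 80 mM. Of 3 tested ones, 1 was called lower and 1 higher at 60 mM, and 1 lower and 2 higher at 80 mM. Dab2 stood at 7.76, 7.78 and 7.25 FPKM at 80 mM, against 1.16, 1.57 and 1.52 at 0 mM. Col4a1 went the other way, at 4.99, 4.85 and 4.62 FPKM against 10.5, 10.4 and 11.1. The part of these lists in the result was not tested either. The 12 fibroblast markers summed to 5.93 to 6.29 FPKM at 0 mM. Their sum was 6.61 to 7.84 FPKM at 60 mM and 8.43 to 8.82 at 80 mM, against 1229 to 1259 in MEFs. Of 4 tested ones, 2 were called lower and 2 higher at each dose. Thy1 stood at 4.18, 3.98 and 4.13 FPKM at 80 mM, against 0.553, 0.491 and 0.456 at 0 mM. Twist1 went the other way, at 0.732, 0.512 and 0.569 FPKM against 1.39, 1.47 and 1.49. Col5a1 was also lower, with a mean of 2.02 FPKM at 80 mM, against 3.08 at 0 mM. Macrophages, which express Apoe and Lgals3 strongly, are marked by a list of 10 genes that summed to 44.3 to 44.5 FPKM at 0 mM, 28.9 to 31.1 at 60 mM and 23.7 to 25.6 at 80 mM. That sum came mostly from Laptm5 and Cd68, while Ptprc, Adgre1 and Tyrobp were at 0 in all 9 lactate libraries. In MEFs 8 of the 10 macrophage markers were at 1 FPKM or more in every library. They summed to 55.05 to 59.53 FPKM there, against 38.73 to 42.06 in the cell-state ESCs. In these ESCs the sum came mostly from Laptm5, at 35.4, 32.1 and 33.5 FPKM, against 5.55, 4.59 and 5.14 in MEFs. Tyrobp and Adgre1 were at 0 in every cell-state ESC library. Of 8 tested macrophage markers, 7 were called higher in MEFs than in ESCs and 1 lower. Their part in the MEF levels of Apoe and Lgals3 was not tested.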

How the data were processed

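Total RNA was extracted with Trizol and libraries were made with the Illumina TruSeq RNA kit, per the labels' protocols. The submitters' processing notes name HISAT2 2.0.4, StringTie 2.1.4 and mm10. The authors deposited FPKM values in 2 separately normalized tables; counting by strand and the annotation are not given in the sources used here. Library sums were 375926 to 519915 FPKM (cell states) and 396792 to 409131 (lactate), with 12266 to 13124 genes at 1 FPKM or more per library. FPKM gives no read depth, so no counting intervals are given. Entries that share a name were summed.

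Genes that reached 1 FPKM in 3 or more libraries were tested on log2(FPKM + 1) with limma 3.58.1 in R 4.3.3 (mean trend, every group of a table fitted together, Benjamini-Hochberg adjustment, threshold 0.05), and the code was tested on simulated data. The 10 genes, the pathway lists and the marker lists were chosen with earlier results of these data known. Also named are, per lowered gene, the genes of most like pattern among those with at least 5 FPKM in a group of each table, up to 3 called genes per list with the largest change at 80 mM, and the nearest tested genes. Genome positions come from GENCODE M21 (GRCm38), promoters from RefSeq (GRCm38.p6). Alternatives changed the scaling (median-of-ratios, quantile), the pseudocount (0.1, 5), the filter (5 FPKM, none) or the groups fitted (the compared pair only), added a replicate block, or dropped each library in turn.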

Additional observations from a re-analysis of the deposited data

How the results depend on the processing

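Since the 10 genes were chosen on the lactate differences, nothing is read from the sign of their values under the alternatives. All 340 values of the 10 genes at 60 and 80 mM under the alternatives were negative, and 30 of them moved by at least the spread between replicates. Their median moved to -1.40 at 60 mM and -2.12 at 80 mM with a pseudocount of 0.1, and to -1.04 and -1.44 with a pseudocount of 5, which by construction changes low genes. Leaving out each library gave medians of -1.35 to -1.25 at 60 mM and -2.06 to -1.96 at 80 mM. It left 8 to 9 of the 10 genes called in 2CLCs, 6 to 9 in EpiSCs and 10 to 10 in MEFs, and 54 to 66 pathway list genes called at 60 mM and 77 to 80 at 80 mM. Median-of-ratios scaling turned Lgals3 in 2CLCs to 0.48; the cause was not tested. Samples of the same replicate number shared only a number, with correlations of their deviations between -0.066 and 0.103 (cell states) and between -0.014 and 0.072 (lactate). A replicate block left 8, 7 and 10 of the 10 genes called in 2CLCs, EpiSCs and MEFs, with pathway counts of 64 at 60 mM and 80 at 80 mM. Among the neighbours at 80 mM, the calls of Apoc1, Dhdds, Agap1, Dlgap5, Gm10233, Gm17080, Gm11605, Phf12 and Gm10132 were lost under at least 1 alternative. Depth is unknown, so values below 1 FPKM are read only as low.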
